A study of Mus musculus with 81 samples.

Results

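MTA elements are a mouse branch of the MaLR retrotransposons (mammalian apparent LTR retrotransposons), and they were followed here as the loci whose species name in the deposited tables begins with MTA. The rule found 18601 of the 970384 LTR loci counted (1.92%). Of these, 15589 were long terminal repeats (LTRs, listed as MTA_Mm) and 3012 were internal segments (MTA_Mm-int), and no expression value was used in choosing them. The same 18601 loci were listed for every library of fetal testicular cells in both generations.

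MaLR elements are non-autonomous relatives of the ERVL retroviruses. Their internal segment carries no working retroviral genes, so copies depend on proteins made elsewhere, and most copies in the genome are single LTRs left after recombination between the LTRs of one element. MTA LTRs are best known in the mouse oocyte and the early embryo, where they act as promoters and give first exons to chimeric transcripts of neighbouring genes. In fetal male germ cells, around the time sampled here, retrotransposons are being silenced again by DNA methylation and by the piRNA pathway, in which small RNAs guide repression of transposon copies.

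The libraries came from testes of OG2 fetuses at E18.5 (days of gestation). OG2 mice carry an EGFP transgene under the Pou5f1 promoter and distal enhancer, which marks germline cells. Female F0 mice drank water with 50 nM tributyltin (TBT) or the DMSO vehicle before mating, throughout pregnancy and, where pups were raised, until weaning. The F1 fetuses were thus exposed in utero, while the F1 animals bred on were exposed in utero and through lactation. The F3 fetuses were not directly exposed and are named by the exposure of the F0 female they descend from. EGFP-positive cells were sorted into populations P4 and P5 by side scatter, and EGFP-negative somatic cells formed population P6. For F1 there were 5 DMSO and 7 TBT libraries of P4, 4 and 7 of P5, and 5 and 7 of P6, and for F3 there were 4 DMSO and 5 TBT libraries of each population. The labels do not say which libraries came from the same fetus or litter, so p-values measure the spread between libraries only. F1 germ-cell libraries carry numbers such as 45-3. Those of TBT all begin with 45 or 47, and those of DMSO with 43, 44 or 48. What this first number stands for is not given, and no test took it into account, so these libraries may not be independent. All values are read counts scaled to library size (CPM) after normalisation by the authors, and 1 read was worth 0.159 to 0.275 CPM in the libraries of the F1 germline table, 0.260 to 0.385 CPM in the F1 somatic, 0.138 to 0.957 CPM in the F3 germline and 0.129 to 0.248 CPM in the F3 somatic table. Each of these 4 tables had been normalised on its own. Comparisons were therefore tested within a table only, and levels of P6 beside germ cells, or of F1 beside F3, are given side by side.

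Libraries held between 246520 and 8161548 reads at LTR loci. Loci inside 11 germ-cell genes summed to 9616 to 23202 CPM in the F1 P4 and P5 libraries and to 28.8 to 262 CPM in P6 of both generations. Loci inside 11 somatic genes summed to 2082 to 2381 CPM in P6 and to at most 273 CPM in germ cells. The sums thus separated germline from somatic libraries in F1, but not every gene did. In F1 DMSO, Cyp11a1 loci had a mean of 67.7 CPM in P4 and 45.1 CPM in P6. The germ-cell gene Tex101 had only 0.0462 CPM in P4 and 0.579 CPM in P5. In F1 P4 the somatic sum had a median of 149 CPM in DMSO and 50.6 CPM in TBT. Several libraries stood apart. There were 4 F3 germ-cell libraries with the fewest reads, called low-read libraries, namely TBT replicates 5 and 9 of P4, TBT replicate 5 of P5 and DMSO replicate 2 of P5. The lowest germ-cell marker sums were 1448 CPM in F3 P4 TBT, 232 CPM in F3 P5 TBT and 2250 CPM in F3 P5 DMSO. TBT replicates 7 and 8 of F1 P6 had MTA totals outside genes several times those of the other somatic libraries. In F3 P5 DMSO, replicates 1 and 2 had 23.5% and 27.9% of all LTR reads outside genes, against 8.75% and 6.12% in replicates 3 and 4. Some comparisons of F3 germ cells and of F1 P6 are also given without the low-read libraries or replicates 7 and 8. The F3 ratios to other families and the F3 differences of the TBT effect between P5 and P4 are not.

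The sequences of 4 loci are shown because the results below turn on them. They are the LTR with the highest DMSO mean outside genes in F1 germ cells and in F3 P4, an internal segment among the highest outside genes in germ cells, the locus that passed the test between exposures, and the LTR with the largest rise in P5 of F1 DMSO. The 300 bases of each were read 5′ to 3′ along the strand of the element from GRCm38.p6, and capitals in the LTRs mark a TATA-type motif, a nuclear receptor motif and the poly(A) signal, whose letters are given with their frequencies below. The LTRs are shown by their last and the internal segments by their first 300 bases.
LTR near Heatr6, chr11:83753039-83753338, minus strand: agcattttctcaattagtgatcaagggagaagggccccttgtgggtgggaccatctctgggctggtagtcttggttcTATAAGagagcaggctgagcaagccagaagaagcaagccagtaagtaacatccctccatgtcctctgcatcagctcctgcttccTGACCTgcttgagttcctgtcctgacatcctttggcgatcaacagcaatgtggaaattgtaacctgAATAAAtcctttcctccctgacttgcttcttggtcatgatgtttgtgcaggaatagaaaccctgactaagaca
LTR near Gm13359, chr2:26721986-26722285, plus strand: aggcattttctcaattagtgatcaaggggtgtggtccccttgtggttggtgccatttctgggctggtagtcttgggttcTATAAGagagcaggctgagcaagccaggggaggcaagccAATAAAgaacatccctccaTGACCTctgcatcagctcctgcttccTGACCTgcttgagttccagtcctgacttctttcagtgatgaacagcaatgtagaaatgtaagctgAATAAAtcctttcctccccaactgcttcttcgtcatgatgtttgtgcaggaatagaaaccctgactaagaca
Internal segment near Gm14295, chr2:176812584-176812883, plus strand: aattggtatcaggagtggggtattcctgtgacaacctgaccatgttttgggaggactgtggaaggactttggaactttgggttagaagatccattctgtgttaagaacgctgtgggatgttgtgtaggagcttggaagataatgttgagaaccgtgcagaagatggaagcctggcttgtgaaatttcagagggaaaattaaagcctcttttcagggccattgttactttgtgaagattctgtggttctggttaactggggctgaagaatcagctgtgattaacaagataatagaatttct
Internal segment near Gm14399, chr2:175128258-175128557, minus strand: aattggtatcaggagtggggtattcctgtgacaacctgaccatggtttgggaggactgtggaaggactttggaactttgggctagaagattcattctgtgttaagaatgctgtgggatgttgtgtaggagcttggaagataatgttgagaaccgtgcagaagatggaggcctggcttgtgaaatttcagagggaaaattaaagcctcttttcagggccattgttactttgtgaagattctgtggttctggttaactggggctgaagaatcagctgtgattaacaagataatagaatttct
The first LTR lies 283 bp from Heatr6 and the other 102 bp from Gm13359, a processed pseudogene. The internal segments lie 1361 and 936 bp from their neighbouring gene models and differ from each other at 5 of the 300 bases shown (98.3% identity), so that a read may match both.

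MTA LTRs were uniform in length and sequence. The median LTR was 394 bp long and 10706 of the 15589 were 390 to 400 bp, referred to below as full-length. Among the full-length LTRs, 86.8% began with TG and ended with CA, the usual ends of a retroviral LTR. In the sense direction 93.8% held the poly(A) signal AATAAA, at a median position of 323. The TATA-type motif TATAAG was held by 90.2%, at 175, and the nuclear receptor motif TGACCT by 86.4%, at 259. In 18519 other LTRs of the same length, counted on either strand, 58.9%, 45.3% and 29.3% held these 3 motifs, against 93.8%, 90.2% and 86.5% of the MTA LTRs counted in that way. Full-length MTA LTRs were poor in CpG sites, with a median of 1, and 32.5% had none, whereas the other LTRs had a median of 2.

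Identity to the majority base of the subfamily had a median of 95.9% in MTA LTRs, with quartiles of 94.2% and 97.2%. By the same measure it was 92.5% for MTB and 89.5% for MTB_Mm, older branches of the MT group, but 96.8% for ORR1A0, a branch of the other mouse MaLR group. MTA was thus the most uniform of the MT branches measured but not of all MaLR loci measured. Most MTA LTRs (10771, or 69.1%) stood alone, 4818 lay next to an internal segment, and 1955 of the 3012 internal segments had an LTR on both sides. Of the LTRs, 9997 lay outside annotated genes, 5186 in introns and 406 overlapped exons, and of the internal segments these numbers were 2079, 870 and 63.

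Most annotated transcription starts gathered in one stretch of the LTR. In the gene annotation, 125 transcripts of genes other than miRNAs began inside 115 MTA LTRs, 109 of them in the sense direction. In 74 of these the LTR was full-length, and the start lay at a median of 204 bases from its 5′ end, with quartiles of 202 and 215.75. The 99 genes with a sense start included 38 protein-coding genes and 40 long non-coding RNAs. A further 57 annotated miRNA genes began in MTA LTRs, all in the sense direction, and 25 of the 40 in full-length LTRs began at position 69. The mature sequence of one of them, mmu-miR-3471, lies at chr4:10845585-10845606 on the minus strand, and it is shown with its seed (bases 2 to 8) in capitals because much of the MTA family carries it.
mmu-miR-3471: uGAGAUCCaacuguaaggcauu
This sequence was found as DNA, in the sense direction, in 4929 (31.6%) of all MTA LTRs and 3937 (36.8%) of the full-length ones, at a median position of 81, and in 0 in the antisense direction. The libraries were not made to capture small RNAs, so no value of the mature miRNA is given.

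**Figure D1:**
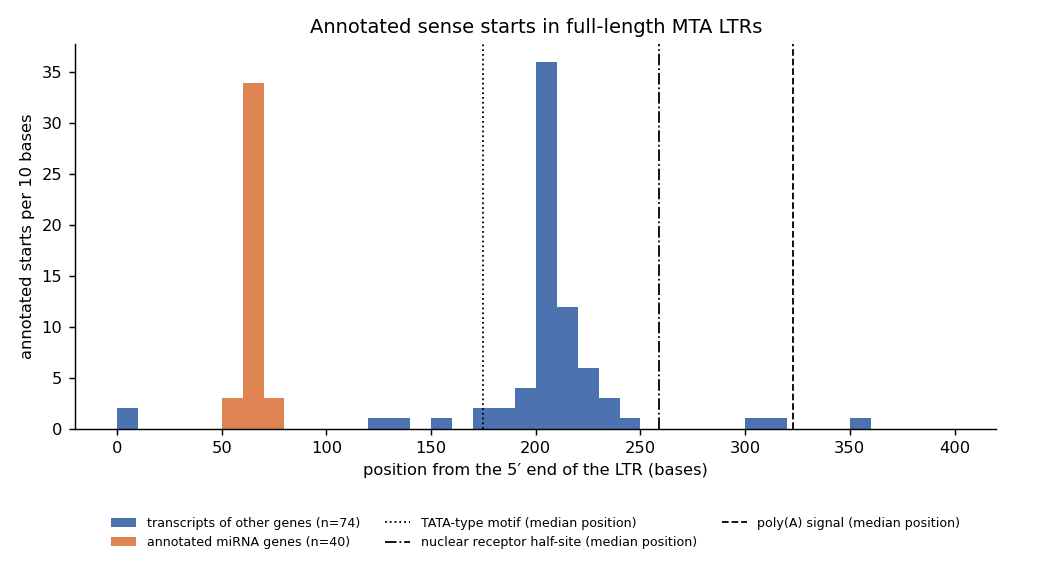
Annotated starts of sense transcripts along full-length MTA LTRs, as a histogram of starts per 10 bases against the position from the 5′ end of the LTR in bases, with the median positions of the 3 motifs as lines. The 74 starts of other genes gather near position 204 and the 40 miRNA starts near position 69.

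Of the 38 protein-coding genes, 7 had a first-exon LTR at 0 CPM in the mean of every DMSO group and 8 had at least 1 CPM in all 6 DMSO groups. The highest was the LTR of Ppp2r2a, a regulatory subunit of protein phosphatase 2A (chr14:67043336-67043715), with means of 28.6, 22.6 and 31.2 CPM in P4, P5 and P6 of F1 DMSO and 32.0, 23.4 and 26.5 CPM in F3 DMSO. The LTR of Msh6, a DNA mismatch repair gene (chr17:87979486-87979877), had 22.2, 12.5 and 9.79 CPM in F1 DMSO. The LTR of Cenpk, a centromere protein gene (chr13:104238067-104238460), was at 4.46, 3.68 and 13.6 CPM, and that of Phf6, a chromatin-associated protein gene (chrX:52924369-52924755), at 11.4, 9.22 and 9.53 CPM. These LTRs overlap exons, and reads of the spliced transcript cannot be told from reads that began in the LTR.

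In F1 germ cells and in P6 of DMSO, most of the MTA value lay at loci inside genes. MTA took 2.06% ± 0.03 (SD, n = 5) of all LTR reads in F1 P4 DMSO, 2.06% ± 0.02 (n = 4) in P5 and 1.99% ± 0.02 (n = 5) in P6. The corresponding F3 DMSO shares were 1.96% ± 0.05, 1.93% ± 0.09 and 1.99% ± 0.01 (n = 4 each), so the share of MTA in the LTR reads differed little between populations. Loci outside genes held 1.54% ± 0.21, 4.22% ± 0.95 and 1.68% ± 0.22 of the MTA value in P4, P5 and P6 of F1 DMSO, and in F3 DMSO 2.39% ± 0.49 in P4 and 1.58% ± 0.15 in P6. The F3 P5 DMSO libraries had 5.25%, 6.08%, 19.5% and 22.96%, and the F3 P5 TBT libraries 4.49% to 29.0%, the highest being that of low-read replicate 5. TBT replicates 7 and 8 of F1 P6 reached at most 8.73%. The internal segments in introns were 2.49 times as long as the LTRs there, yet in F1 P4 DMSO a locus of each kind had nearly the same value (2.93 CPM against 3.34 CPM per locus). Among tested intronic loci of the 4 tables, 26.9% to 40.4% of MTA loci had exactly the same reads in every library as another tested locus of the same gene, against 38.0% to 48.8% of all LTR loci. In exons the shares were 12.1% to 16.8% of MTA and 6.81% to 13.5% of all loci. Outside genes, loci with the same reads as another tested locus of the chromosome made up 14.3% and 8.11% of MTA loci in the F1 and F3 germline tables, against 2.08% and 1.59% of all loci, and 0% in both somatic tables, against 1.88% and 1.11%. The value of such a locus is not particular to it. How reads that match several places were counted is not given in the sources used here, and the library kit does not mark strand, so reads of the host gene and of the element cannot be told apart.

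The loci with the highest values lay inside genes. The highest MTA locus of germ cells was a 139-bp LTR in an intron of Mael (chr1:166207428-166207566), a germline gene of the piRNA pathway. In F1 P4 DMSO it had 600, 602, 628, 731 and 735 CPM, in P5 DMSO 400, 432, 450 and 469 CPM, and in P6 DMSO at most 1.43 CPM. The P4 and P5 values did not overlap, and the somatic libraries were close to 0. In F1 P4 an LTR in an intron of Hat1, a histone acetyltransferase gene, followed (chr2:71416233-71416628), with group means of 283 ± 37.8 CPM in P4 and 196 CPM (179 to 230) in P5 of F1 DMSO, and 28.8 ± 4.81 CPM in P6. The highest internal segments of germ cells in F3 included the one in an intron of Gtsf1, another piRNA pathway gene (chr15:103406998-103408171), which had 117, 188, 309 and 369 CPM in F3 P4 DMSO and 75.1, 81.7, 87.4 and 184 CPM in P5 DMSO. In P6 it was at 0 in 4 of 5 F1 DMSO libraries. The highest internal segment of P4 in both generations, in an intron of Tsn (chr1:118303793-118303946), had means of 203, 145 and 57.9 CPM in P4, P5 and P6 of F1 DMSO, and the next of F1 germ cells, in Ash2l, a subunit of histone methyltransferase complexes, 152, 104 and 24.2 CPM.

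The Tsn segment was also second among internal segments of P6 in both generations. The first there, the internal segment in an intron of Pdlim3, a gene for an actin-associated PDZ and LIM domain protein (chr8:45898267-45899364), had 214, 226, 241, 276 and 292 CPM in F1 P6 DMSO, against 1.83 to 11.1 CPM in P4 and 3.19 to 7.41 CPM in P5. Its flanking LTRs carried nearly the same values. An LTR in an intron of Pdia3, an endoplasmic reticulum disulphide isomerase gene (chr2:121423869-121424261), had 288 to 335 CPM in F1 P6 DMSO, 209, 256, 257 and 287 CPM in P5 and 69.3, 70.4, 76.6, 83.4 and 90.2 CPM in P4. Its F1 P5 values were all above those of P4. In F3 DMSO it had 63.0 to 74.6 CPM in P4 and 45.01 to 255 CPM in P5, which overlapped, and 278 to 318 CPM in P6.

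Outside genes, the LTR near Heatr6 shown above had the highest mean of DMSO libraries in F1 P4, F1 P5 and F3 P4, but not in F3 P5, where an LTR at chr2:177015226-177015626 had 24.8 and the Heatr6 LTR 8.67 CPM. It had 11.3, 11.4, 13.4, 13.4 and 18.7 CPM in F1 P4 DMSO and 6.73, 8.64, 9.30 and 14.8 CPM in P5 DMSO, against at most 1.72 CPM in P6 DMSO. In F3 DMSO the P4 libraries spread from 0 to 82.1 CPM and the P5 libraries from 0.857 to 21.7 CPM. A further LTR (chr13:48346204-48346570) had 2.84 to 8.27 CPM in F1 P4 DMSO and 2.10 to 7.23 CPM in P5 DMSO and was at 0 in every P6 library of both generations. Its 4 F3 P4 DMSO libraries had 11.7, 18.1, 20.2 and 42.1 CPM. The reverse held near Hgsnat, a lysosomal acetyltransferase gene, where an LTR 650 bp away (chr8:25943408-25943803) had 10.2, 12.9, 14.8, 15.9 and 18.7 CPM in F1 P6 DMSO and at most 2.58 CPM in germ cells of F1 DMSO. In F3 P6 DMSO it had 14.0, 14.9, 17.6 and 18.4 CPM, and in F3 germ cells of DMSO it was at 0 in every library but 1 of P5, which had 12.8 CPM. An LTR 1578 bp from 2610507I01Rik (chr11:59197862-59198258) was also highest in P6, with a mean of 18.1 ± 5.13 CPM in F1 DMSO against 2.84 ± 1.16 in P4 and 2.85 ± 1.88 CPM in P5.

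**Figure D2:**
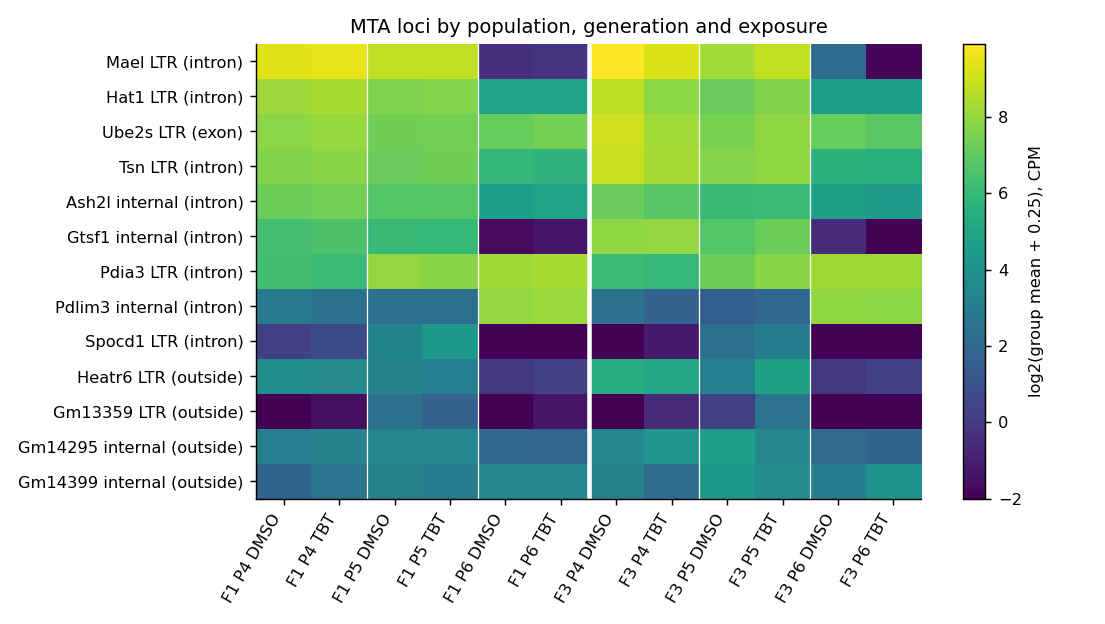
Group means of 13 MTA loci as a heat map, log2 of the mean plus 0.25 CPM, in P4, P5 and P6 of F1 (left) and F3 (right) with DMSO and TBT side by side. The Mael, Hat1 and Gtsf1 loci are high in germ cells, the Pdlim3 loci in P6, and Spocd1 and Gm13359 loci above 1 CPM only in P5 columns and in the F1 P4 TBT column of Spocd1.

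Summed over all loci, the MTA value was slightly lower in P5 than in P4, while outside genes it was higher. The MTA_Mm total was lower in P5 by 0.15 (SE 0.03) on the log2 scale in F1 DMSO (adjusted p = 0.00287, limma) and by 0.20 (SE 0.04) in F1 TBT (adjusted p = 0.00136). In this deposited scaling, 30.2% of all species totals were lower and 15% higher in F1 DMSO, and 35.8% and 20% in F1 TBT. The summed values of the libraries themselves were lower in P5 by 0.13 and 0.17 on the log2 scale, and after scaling to a common total the MTA_Mm differences were -0.02 and -0.02, with adjusted p = 0.181 and 0.115. The internal total differed by -0.03 and -0.03 in F1 DMSO and TBT and did not pass (adjusted p = 0.567 and 0.473), and after scaling to a common total it was higher in P5, by 0.11 and 0.14 (adjusted p = 0.00701 and 0.000272, limma), so its direction depended on the scaling. The shares of all species that passed after scaling to a common total are not given here. This pass is thus not set against its background. In F3 no MTA total passed, with MTA_Mm at -0.52 (SE 0.20, adjusted p = 0.104) in DMSO (without the low-read library -0.34, adjusted p = 0.0452, limma, which passed, with 4.52% of species higher and 11.1% lower) and -0.15 (SE 0.58, adjusted p = 1.00) in TBT. Of all species totals in the deposited scaling, 4.07% were higher and 5.43% lower in F3 DMSO, and 0% and 0% in F3 TBT. These shares are not given for the other scalings. The summed values of the F3 DMSO libraries were themselves lower in P5 by 0.46 (0.31 without the low-read library), and with median-ratio factors the MTA_Mm difference in F3 DMSO was 0.12, so its direction depended on the scaling.

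Restricted to loci outside genes, the total of MTA in F1 DMSO was 282 to 356 CPM in the 5 P4 libraries and 620, 762, 826 and 1041 CPM in the 4 P5 libraries, without overlap. In F1 TBT it was 275 to 334 CPM, with a median of 330 CPM, in P4 and 753 to 1186 CPM, with a median of 968 CPM, in P5. The MTA_Mm total outside genes was higher in P5 by 1.38 (SE 0.15) in F1 DMSO and by 1.77 (SE 0.15) in F1 TBT on the log2 scale (adjusted p = 5.49e-08 and 1.64e-10, limma). The internal total rose by 1.16 (SE 0.15) and 1.32 (SE 0.13), with adjusted p = 6.77e-07 and 2.8e-09. This rise was general to LTR loci outside genes. Of all species totals outside genes, 74.2% were higher and 0.171% lower in F1 DMSO, and 93.7% and 0.17% in F1 TBT, and the median change over species was 1.12 and 1.46. The share of all LTR reads that lay outside genes rose from 2.27% ± 0.14 to 5.04% ± 0.96 in F1 DMSO, and its part in the MTA rise was not tested. In bulk samples, fewer cells of a type and less RNA per cell cannot be told apart, which also holds for every level given here.

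In F3 the P4 DMSO libraries had 435, 547, 730 and 745 CPM of MTA outside genes and the P5 DMSO libraries 1105, 1362, 2938 and 3571 CPM. The groups did not overlap, and MTA_Mm rose by 1.75 (SE 0.60) and the internal segments by 1.67 (SE 0.57), with adjusted p = 0.0146 for both. The 2 highest P5 libraries were replicates 1 and 2, which also had the highest share of all LTR reads outside genes, and their part in the result was not tested. Without low-read replicate 2 the changes were 1.51 (adjusted p = 0.0725, limma), which did not pass, and 1.66 (adjusted p = 0.0455), with 20.6% of species higher and 0% lower. Among all species 39.3% were higher and 0% lower, with a median of 1.59. F3 TBT libraries had 310, 475, 533, 1032 and 1466 CPM in P4 and 999, 1072, 1379, 2138 and 2199 CPM in P5, which overlapped, the highest P4 values being those of the low-read replicates 5 and 9. Without the 3 low-read libraries the P4 values reached at most 533 CPM and did not overlap those of P5, and both passed (1.99, adjusted p = 0.000384, and 1.40, adjusted p = 0.00900), with 79.3% of species higher and 0% lower. With all libraries neither MTA_Mm (1.26, SE 0.51, adjusted p = 0.0785) nor the internal segments (1.00, SE 0.44, adjusted p = 0.0950) passed in F3 TBT, while 15.5% of species were higher and 0% lower. P6 libraries had 282 to 394 CPM in F1 DMSO and 290 to 363 CPM in F3 DMSO, in their own tables.

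**Figure D3:**
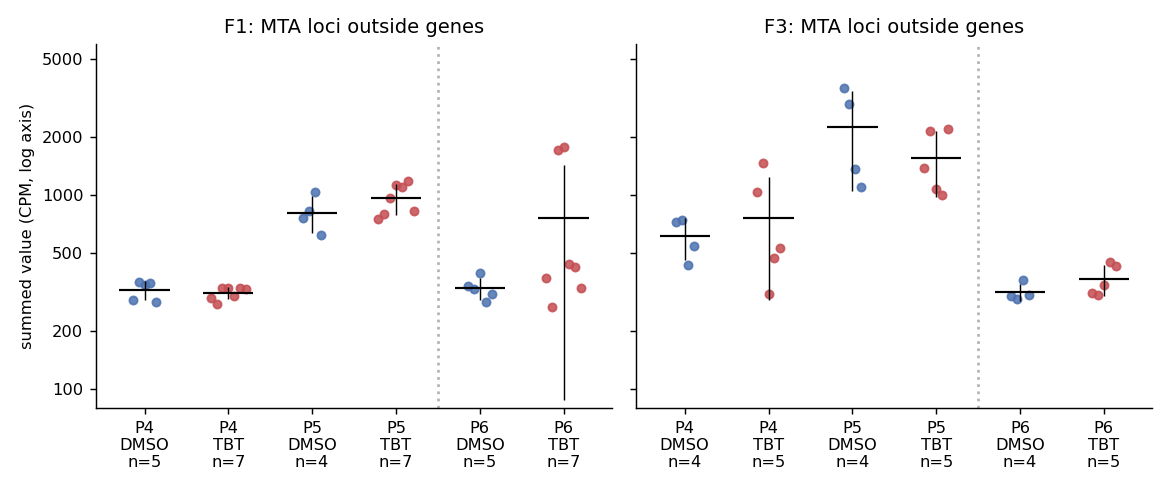
Summed CPM of MTA loci outside genes in each library on a log axis, for F1 (left) and F3 (right), with the group mean (horizontal line) and SD (vertical line), DMSO in blue and TBT in red. The dotted line divides the germline from the separately normalised somatic table, and the 4 F1 P5 DMSO libraries lie between 620 and 1041 CPM, all above the P4 libraries.

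In each class of MTA locus outside genes that was examined, the mean was higher in P5 than in P4. Per kilobase, MTA LTRs went from 0.0553 ± 0.006 CPM in P4 to 0.147 ± 0.040 CPM in P5 of F1 DMSO, and internal segments from 0.0641 ± 0.010 to 0.143 ± 0.019 CPM, while all LTR loci outside genes went from 0.108 to 0.218 CPM. P6 had 0.0480 CPM per kilobase for MTA LTRs and 0.0817 CPM for internal segments. The group mean in P5 was 3.08 times that in P4 for full-length LTRs and 2.21 times for LTRs of other lengths in F1 DMSO, 4.53 and 2.49 times in F1 TBT, and 4.74 and 2.83 times in F3 DMSO (3.93 and 2.61 without low-read replicate 2). Among full-length LTRs ordered from the most divergent 25% to the 25% closest to the majority sequence, the ratios were 3.04, 2.44, 4.12 and 3.38 in F1 DMSO and rose in this order from 4.20 to 5.03 in F1 TBT. In F3 DMSO they were 4.27, 4.26, 4.53 and 7.72 (3.06, 4.07, 3.71 and 6.69 without low-read replicate 2), and in F3 TBT 2.21, 2.43, 2.40 and 2.47 (5.25, 4.71, 5.65 and 4.75 without the low-read libraries). In F1 P4 DMSO the most divergent group had a level of 0.0521 and the closest 0.0256 CPM per kilobase. LTRs within 1 kb of a gene had a higher level (0.248 CPM per kilobase in P4 and 0.519 CPM in P5 of F1 DMSO) with a ratio of 2.09, against 2.78 for LTRs farther away. LTRs on the X chromosome had a lower level than autosomal ones, 0.0160 against 0.0614 CPM per kilobase in P4 and 0.0531 against 0.162 CPM in P5 of F1 DMSO. These class ratios were not tested against each other.

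Set against other families in the same libraries, MTA was relatively higher in P5 against some and not against others. Outside genes, the log2 ratio of MTA to the older MT branches MTB and MTC was -1.61 ± 0.20 (SD, n = 5) in P4 and -1.18 ± 0.14 (n = 4) in P5 of F1 DMSO, a difference of 0.44 (exact permutation test, two-sided p = 0.0159, the smallest this unpaired test can give, adjusted p = 0.0476 over 12 ratios). Here and for the ratios below, libraries were exchanged freely, without pairing P4 and P5 of the same number. No paired form was run. In F1 TBT it went from -1.65 to -1.25 (difference 0.41, exact permutation p = 0.000583, the smallest possible, adjusted p = 0.0035), and the libraries of P4 and P5 did not overlap in either exposure. The ratio to MERVL and its LTR MT2_Mm, the ERVL family known from the 2-cell embryo, rose by 0.94 in F1 DMSO (adjusted exact permutation p = 0.0476) and by 0.98 in F1 TBT (adjusted p = 0.0035). The ratio to ORR1A, a further MaLR group, differed by 0.11 and -0.03 (adjusted exact permutation p = 0.444 and 0.649). In F3 the ratio to MTB and MTC differed by 0.50 in DMSO, without overlap of the libraries (exact permutation p = 0.0286, the smallest possible without pairing, adjusted p = 0.0686), and by 0.26 in TBT (adjusted p = 0.163), and neither passed. The F3 differences to MERVL and MT2_Mm were 0.51 and 0.29 in DMSO and TBT (adjusted exact permutation p = 0.257 and 0.649) and those to ORR1A 0.08 and -0.09 (adjusted p = 0.649 and 0.163). With 1 library left out, the differences to MERVL and MT2_Mm ranged from 0.34 to 0.66 in F3 DMSO and from -0.022 to 0.66 in F3 TBT. With loci inside genes included, the F1 differences to MTB and MTC were 0.05 and 0.04 and those to MERVL 0.09 and 0.11, and none passed.

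**Figure D4:**
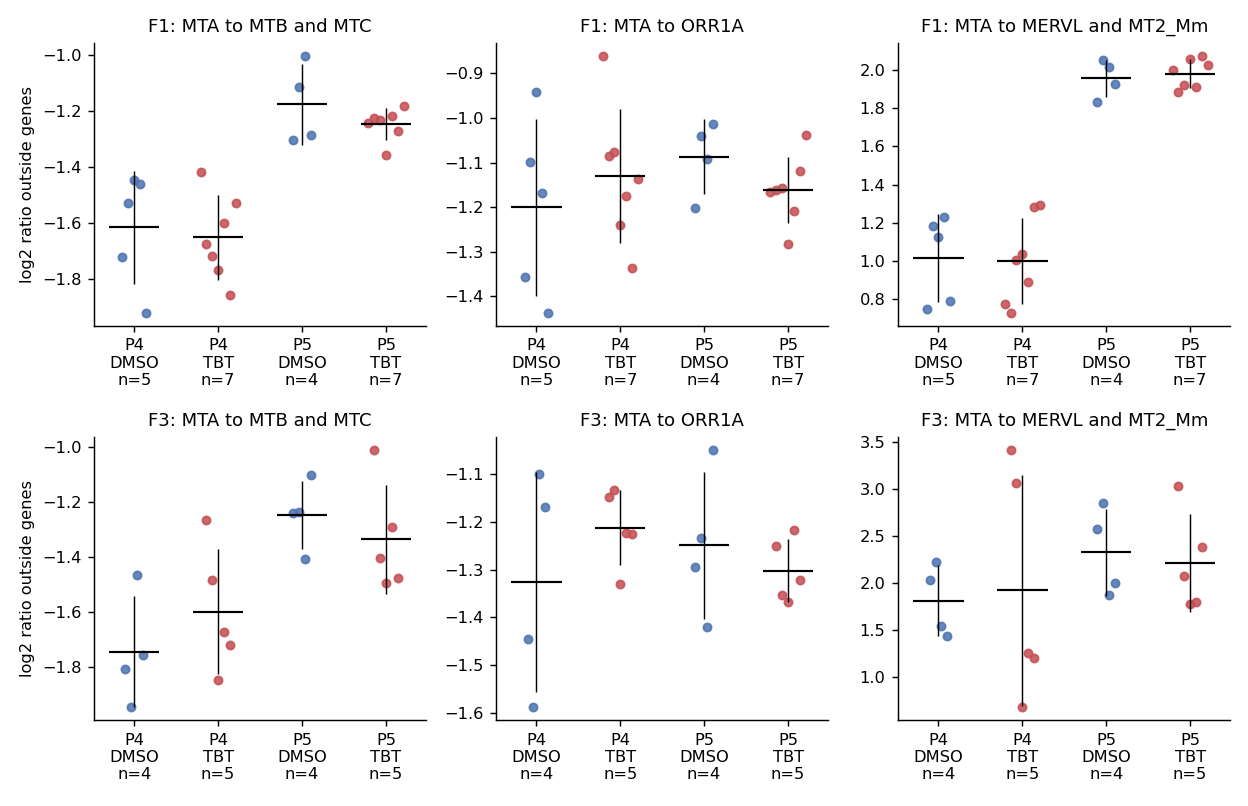
Log2 ratio of the summed MTA value to that of 3 other groups of LTR species outside genes, per library of P4 and P5, F1 above and F3 below, with mean and SD, DMSO in blue and TBT in red (the y axes differ). In F1 the P5 libraries lie above all P4 libraries for MTB and MTC and for MERVL and MT2_Mm, and overlap them for ORR1A.

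Single MTA loci differed between P4 and P5 in both directions. Of 1998 tested MTA loci in F1 DMSO, 163 were higher and 130 lower in P5 (8.16% and 6.51%), against 6.44% and 5.9% of all 101234 loci tested. Without P5 replicate 43-5 or 44-1, 181 and 192 MTA loci passed (9.12% and 9.73%), against 7.14% and 8.03% of all loci. In F1 TBT 305 were higher and 295 lower of 1957 (15.6% and 15.1%), against 14.6% and 14.8% of all loci, so in both exposures the shares of MTA were near those of all LTR loci. Of the higher MTA calls, 57 in F1 DMSO and 111 in F1 TBT reached the minimum mean in P5 and not in P4. Their direction was set by the filter. The split depended on the scaling, for MTA as for all LTR loci. With libraries scaled to a common total it was 189 higher and 56 lower in DMSO (12.3% in all) and 371 and 132 in TBT (25.7%), beside 7508 higher and 2602 lower (9.99%) and 17577 and 6996 (24.2%) of all loci. With median-ratio size factors it was 189 and 62 (12.6%), and 347 and 173 (26.6%), beside 7466 and 2942 (10.3%) and 16721 and 8946 (25.2%) of all loci. With a minimum mean of 20 times the value of 1 read it was 72 and 181 (28.8% of those tested), and 94 and 314 (47.2%), beside 3244 and 7831 (26.1%) and 4436 and 15131 (45.7%) of all loci. The 19 called loci outside genes in F1 DMSO and the 18 in F1 TBT were all higher in P5, of 60 and 57 tested. Of these, 13 and 12 reached the minimum mean in P5 and not in P4, so their direction was set by the filter. Of all LTR loci outside genes, 728 of 4392 tested were called in F1 DMSO, 661 of them higher. In F1 TBT 2173 of 4975 were called, 2055 of them higher. How many of these reached the minimum mean in P5 alone was not counted.

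Called loci of one gene had the same direction. The called loci in F1 DMSO lay in 180 sets of host genes, 46 of which held at least 2 called loci, and 0 of these 46 held calls of both directions. Loci that carry the same reads must share a direction, and loci in 1 gene can take reads of the same host RNA. The count was not made for all LTR loci, so the shared direction is not given as a trait of MTA. All 6 tested MTA loci in Ptprk, a receptor tyrosine phosphatase gene, were higher in P5, with a median log2 change of 2.67 in DMSO and 1.43 in TBT. In Chchd3, a gene for a mitochondrial cristae protein, all 6 were lower, with medians of -0.60 and -0.52. All 5 in Smc3, a cohesin subunit, were lower as well (-0.53 and -0.53). In Lmbr1, a membrane protein gene whose intron holds a limb enhancer of Shh, 5 of 8 passed in DMSO and 8 of 8 in TBT, all higher, with a median of 1.52 and 1.53. In Abcc4, a drug and cyclic nucleotide transporter gene, all 4 were higher (2.13 and 1.10), and in Sycp1, a synaptonemal complex gene, all 5 were higher in TBT (1.34).

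The largest log2 changes upward were at loci close to 0 in P4. These reached the minimum mean through P5 and so had to be higher there, and their values are given as a description, except for the Spocd1 LTR in F1 TBT, which reached it in P4 too. The LTR near Gm13359 shown above was at 0 in all 5 P4 DMSO libraries and had 2.52, 3.35, 3.79 and 10.3 CPM in P5 DMSO. Its fitted log2 change of 4.30 depends on the pseudocount. The pooled P5 value was 31.9 times a floor of 3 reads over the P4 group, with 44 of its 95 reads in replicate 43-5. In F1 TBT it was at 0 in 6 of 7 P4 libraries and had 2.22 to 4.67 CPM in P5. A full-length LTR in an intron of Spocd1 (chr4:129948231-129948627), a gene needed for piRNA-directed DNA methylation in fetal male germ cells, had 0, 0, 0.457, 1.29 and 2.96 CPM in P4 DMSO and 6.72, 7.17, 8.41 and 18.2 CPM in P5 DMSO (log2 change 3.75). In F1 TBT its P5 libraries had 11.3 to 28.5 CPM, with a median of 21.3 CPM, and the change was 4.19 (SE 0.46, adjusted p = 3.42e-07). It was at 0 in every P6 library of both generations and in all 4 F3 P4 DMSO libraries, while F3 P5 DMSO libraries had 0, 0, 6.93 and 12.4 CPM. An LTR in an intron of Abca5, a lipid transporter gene (chr11:110295507-110295881), had at most 0.924 CPM in P4 DMSO and 2.39, 3.10, 5.21 and 5.60 CPM in P5 DMSO (3.34). An internal segment 6381 bp from Adgb (chr10:10478707-10479803) was among the 3 largest in F1 TBT, with 0 CPM in 5 of 7 P4 libraries and 2.83 to 6.59 CPM in P5 (3.65).

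The largest falls were smaller. In F1 DMSO they were the LTRs in introns of Stk24, a serine/threonine kinase gene (log2 change -1.28, SE 0.39, adjusted p = 0.0323), Tmem232 (-1.22, SE 0.28, adjusted p = 0.00656) and Ppfibp2 (-1.10, SE 0.32, adjusted p = 0.0281). The Stk24 locus had 2.58, 3.23, 4.12, 4.43 and 5.07 CPM in P4 and 0.700, 1.35, 1.55 and 2.63 CPM in P5. In F1 TBT the largest falls were in Acsm4 (-1.48), Cux1 (-1.35) and Dnah7a (-1.17).

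**Figure D5:**
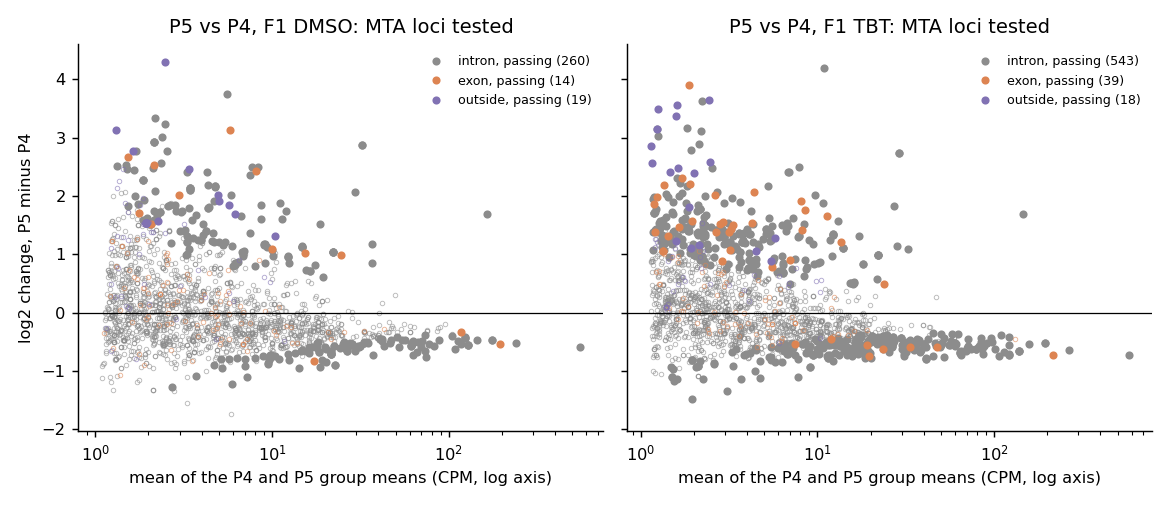
Log2 change between P5 and P4 against the mean level in CPM (log axis) of every tested MTA locus in F1 DMSO (left) and F1 TBT (right), with filled points for adjusted p under 0.05, coloured by position in an intron, in an exon or outside genes. The calls outside genes, 19 and 18, all lie above 0.

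In F3, 1 of 1958 tested MTA loci passed in DMSO (background 0.0638% higher and 0.0809% lower). It was the Mael LTR, with 884, 957, 981 and 1030 CPM in P4 and 96.4, 154, 444 and 513 CPM in P5 (log2 change -1.99, SE 0.39, adjusted p = 0.0337). It was the highest MTA locus in both populations. When P4 replicate 1 or 3 or P5 replicate 1 or 2 was left out, 0 MTA loci passed, and without P5 replicate 3, 51 passed, 4 higher and 47 lower (2.71%, against 2.6% of all loci, of which 392 were higher and 2282 lower). DESeq2 called 36 (1.84%, against 3.3% of all loci), the likelihood ratio test 27 (1.38% against 2.51%) and the quasi-likelihood test 0 (background 0%). By limma, 2 passed with a common total, for which the share of all loci is not given here. With a pseudocount of 4 times the value of 1 read 3 passed (background 0.266%), and with no filter 20 (0.279% against 0.382%). Median-ratio factors, a minimum mean of 20 times that value, a pseudocount of 0.25 times it and the fit without the low-read library gave 0. With the replicate number as a block, 7 passed, 2 higher and 5 lower (0.358%, against 0.627% of all loci). In F3 TBT 0 of 1715 passed by limma (background 0% and 0%), with an unadjusted p under 0.05 for 33 (1.92%, against 3.77% of all loci), while edgeR's quasi-likelihood test called 40 (2.33%, against 3.39% of all loci), the likelihood ratio test 57 (3.32% against 4.83%) and DESeq2 22 (1.28% against 1.8%). Without the 3 low-read libraries 15 passed by limma, all higher (0.777% against 1.32% of all loci).

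The comparison of TBT with DMSO asks whether exposure of the F0 mother went with a change of MTA RNA in the offspring, 1 of the readouts of a study on how TBT effects pass between generations. MTA as a whole showed no difference that passed a test. The MTA_Mm total differed between TBT and DMSO by 0.06, 0.01 and 0.04 on the log2 scale in P4, P5 and P6 of F1 and by -0.46, -0.09 and 0.00 in F3 (adjusted p at least 0.439, limma), and the internal total by 0.03, 0.03 and 0.08 in F1 and -0.33, -0.08 and 0.02 in F3 (adjusted p at least 0.507). In F3 P4 the summed values of the libraries differed by -0.41, and without the low-read libraries the MTA_Mm difference was 0.014 and the internal -0.031. In F3 P5 these were 0.22 and 0.15 without the low-read libraries, where the summed values differed by 0.18. Outside genes, the MTA total had a mean of 325 CPM in DMSO and 314 CPM in TBT in F1 P4, 812 and 964 CPM in F1 P5, and 331 and 760 CPM in F1 P6. In F1 P6, DMSO libraries had 282 to 394 CPM and the 7 TBT libraries had 265 to 1773 CPM, with a median of 428 CPM. Replicates 7 and 8 had 1709 and 1773 CPM, and the other 5 had at most 443 CPM. With replicates 7 and 8 included, the median log2 difference over all species totals outside genes was 1.22 in F1 P6. In F3 the means were 614 and 763 CPM in P4, 2244 and 1557 CPM in P5, and 316 and 369 CPM in P6. The log2 differences were -0.04, 0.25, 0.79, 0.12, -0.44 and 0.21, with exact permutation p (two-sided) of 0.566, 0.188, 0.121, 0.825, 0.333 and 0.206 and an adjusted p of at least 0.413 over the 6 groups. Without replicates 7 and 8 the difference in F1 P6 was 0.14, and in F3 P4 it turned to -0.49 without the 2 low-read libraries. Without the low-read libraries the F3 P5 difference was -0.23. No difference of the TBT effect between P5 and P4 passed either (log2 -0.05 and -0.01 in F1, 0.38 and 0.25 in F3, adjusted p at least 0.997).

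Locus by locus, 0 MTA loci passed between TBT and DMSO by limma in 5 of the 6 groups. The background over all LTR loci was 0% higher and 0% lower in F1 P4, 0.0111% and 0% in F1 P5, 0.00341% and 0% in F1 P6, 0% and 0% in F3 P4, 0% and 0% in F3 P5, and 0.02% and 0.0143% in F3 P6. Unadjusted p was under 0.05 for 112, 123, 58, 23, 16 and 190 of 1824, 2091, 1856, 1587, 2058 and 2179 tested MTA loci in these 6 groups (6.14%, 5.88%, 3.125%, 1.45%, 0.777% and 8.72%), against 7.09%, 6.77%, 3.68%, 1.66%, 1.03% and 7.96% of all loci tested. The edgeR quasi-likelihood test called 0, 0, 0, 0, 0 and 2 (background 0.0582% in F3 P6), and DESeq2 called 1 each in F1 P4 and F3 P6 (background 0.00426% and 0.0801%). The edgeR likelihood ratio test, used in the study for these loci, called 2 in F1 P4, 5 in F1 P5, 55 in F3 P5 and 6 in F3 P6 (0.110%, 0.239%, 2.67% and 0.275%), against 0.099%, 0.257%, 3.28% and 0.32% of all loci. In F3 P5 its calls were 7 higher and 48 lower, and 0 passed by the other tools.

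The locus that passed was the internal segment near Gm14399 in F3 P6 (chr2:175127462-175128557), whose first 300 bases are given above. DMSO libraries had 4.73, 7.69, 9.72 and 10.05 CPM and TBT libraries 13.1, 15.6, 16.3, 18.4 and 19.8 CPM, without overlap (log2 change 1.07, SE 0.19, adjusted p = 0.0386). Germ-cell marker sums of these libraries did not overlap either, with 34.7 to 262 CPM in DMSO and 28.8 to 32.8 CPM in TBT. Whether the 2 differences go together was not tested. No MTA locus passed when any 1 of the 5 TBT libraries or DMSO replicate 3 was left out, and 2 passed without DMSO replicate 2 (background 0.138%). With a pseudocount of 0.25 times the value of 1 read, 0 passed. In F1 P6 the same segment had 7.80 to 13.3 CPM in DMSO and 3.61 to 16.3 CPM in TBT, which overlapped. In the other 5 groups the loci with the lowest p among those without overlap did not pass. In F1 P4 they were an LTR in an intron of Pias1, a SUMO ligase gene (log2 change 1.22, adjusted p = 0.582), and an LTR in an exon of Dera (-1.34, adjusted p = 0.582). In F1 P5 they were an internal segment in Gm26901 (2.59, adjusted p = 0.307) and an LTR in Ptprk (-0.76, adjusted p = 0.472). In F1 P6 the LTRs in Mtbp (0.68) and Kcng2 (-0.59) both had an adjusted p = 0.999. In F3 P4 they were LTRs in Brip1 (1.38) and Frg1 (-1.15), both with an adjusted p = 0.866, and in F3 P5 LTRs in Srek1ip1 (3.13) and 2010005H15Rik (-2.35), both with an adjusted p = 1.00.

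The segment that passed belongs to a dense group of MTA copies at the distal end of chromosome 2. This region, whose MTA loci outside genes span positions 174039366 to 178697894, was chosen after values were seen. It held 129 LTRs and 74 internal segments of MTA outside genes. Its members outside genes gave 46.3% ± 5.9 of the value of internal segments outside genes in F1 P4 DMSO, 42.3% ± 7.0 in P5 and 46.0% ± 3.6 in P6, and 14.4% ± 2.9, 12.8% ± 3.0 and 19.3% ± 3.7 of the value of the LTRs. The internal segment near Gm14295 had 3.61, 6.18, 7.39, 9.93 and 14.1 CPM in F1 P4 DMSO, 8.24, 9.47, 12.6 and 14.3 CPM in P5 DMSO and 1.04 to 5.20 CPM in P6 DMSO. The segment near Gm14325 (chr2:177829340-177830428) had 5.87 to 8.62 CPM in P4, 7.24 to 15.1 CPM in P5 and 8.06 to 14.0 CPM in P6. A set of 5 called loci outside genes between 175226028 and 175291398 had one and the same log2 change between P5 and P4 in F1 DMSO (1.53, adjusted p = 0.0423). Near-identical copies can share reads, so the value of a single copy in this region is uncertain.

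The value outside genes was spread over many LTRs and fewer internal segments. The 10 highest loci gave 19.5% of the LTR value and 38.1% of the internal value outside genes in F1 P4 DMSO, 9.84% and 31.4% in P5, and 34.2% and 46.0% in P6. In F1 DMSO a median of 212 LTRs outside genes had a read in a P4 library, 581 in a P5 library and 170 in a P6 library, of 9997. One F3 P5 DMSO library, the low-read replicate 2, alone gave 82.3 CPM at an LTR 2787 bp from Clptm1l (chr13:73623392-73623786), where the other 3 libraries had 0, 0 and 2.08 CPM.

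Other MaLR and ERVL relatives were compared as 29 species totals, chosen with earlier results known. By limma, 0 passed between TBT and DMSO in any group, with an unadjusted p under 0.05 for 5 in F1 P4, 1 in F1 P5, 2 in F1 P6 and 0 in F3, against 7.68%, 4.8% and 6.36% of all species in F1 and 3.02%, 0% and 9.37% in P4, P5 and P6 of F3. Between P5 and P4, in the deposited scaling only, 3 were higher and 19 lower in F1 DMSO and likewise 3 and 19 in F1 TBT, against 15% higher and 30.2% lower, and 20% and 35.8%, of all species. Their median log2 change was -0.12 and -0.17, against -0.07 and -0.07 over all species and -0.13 and -0.17 for the summed values of the libraries. In F3, 0 of the 29 passed in either exposure, while 27 of all 663 species were higher and 36 lower in DMSO and 0 of 662 passed in TBT.

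DNA methylation was measured in P6 only, by sequencing DNA captured with a methyl-CpG binding domain (MBD), as read counts in windows of 100 bp. The deposited windows included 541 that overlapped MTA loci in F1 (0.350% of 154773) and 564 in F3 (0.343% of 164382). Of these, 370 and 395 held no CpG site, and libraries held 701493 to 1913350 reads in F1 and 1105120 to 1556380 reads in F3. After the filter on low counts 16 and 42 MTA windows could be tested, and 0 passed in either generation by edgeR's quasi-likelihood test, with an unadjusted p under 0.05 for 3 and 1 (18.75% and 2.38%, against 5.01% and 5.19% of all windows tested). In F1, 1 window of 36 tested passed when TBT replicate 6 was left out, against 0.0244% of all windows. Of all windows tested 0.00579% were higher and 0.026% lower in TBT in F1, and 0% and 0% in F3. The lowest p was at a window in an LTR at chr4:3089301-3089400 in F1 (log2 change -0.55, adjusted p = 0.227), which itself holds 0 CpG sites. Methylation of MTA in the germ cells was not analysed here.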

How the data were processed

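RNA was measured in 62 libraries and methylated DNA in 19. According to the submitters' notes and methods, RNA was made into libraries with an oligo-dT kit, and reads were trimmed with Trim Galore and aligned with STAR to mm10. Retroviral loci were counted with a modified ERVmap over RepeatMasker LTRs. The kit named is of a type that does not mark strand, which the paper's methods do not state. The deposited RNA values are a normalised signal, CPM after TMM by the authors with edgeR. Whole reads could be recovered from them (100% of values whole within 0.05). The deposited MBD values are raw read counts per window of 100 bp. Versions, and how reads with several matches were counted, are not given in the sources used here.

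Places came from GENCODE vM21, and sequences from RefSeq GRCm38.p6 (the same build as mm10). P5 and P4, and TBT and DMSO, were compared by limma (version 3.58.1) on log2 of the value plus the median value of 1 read in its table (0.229 CPM in F1 germline, 0.294 in F1 somatic, 0.264 in F3 germline and 0.197 in F3 somatic), with a mean of at least 5 times that value, p-values adjusted by Benjamini-Hochberg over all loci or species and a threshold of 0.05. Fold changes are on that scale, which understates changes of low loci. Ratios and totals outside genes were compared by exact permutation tests (two-sided, scipy 1.17.1). MBD counts and recovered reads were tested with edgeR 4.0.16 (quasi-likelihood) and DESeq2 1.42.0 under R 4.3.3. The alternatives were another pseudocount, filter, scaling or tool, each library left out, a replicate block, and, chosen after seeing the data, fits without the libraries that stood apart.

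In simulated data limma recovered 100% of 4-fold and 57% of 2-fold changes for TBT in F1 P4, and 97% and 11% for P5 against P4 in F3 DMSO. The level and spread of the simulated loci are not given here. These rates may therefore be too high for loci near the minimum mean and for groups with low-read libraries. Same-numbered P4 and P5 libraries deviated together in F3 DMSO (r = 0.25 to 0.43, 4 of 4 pairs over 0.1), where the numbers were taken as pairs by that check alone, since no label ties them to an animal. The main fits and the permutation tests did not use these pairs. The loci and species lists were chosen with earlier results of these data known. Named were the 3 highest LTRs and 2 highest internal segments of each population, the same outside genes, of which some are given here, the called loci with the largest changes (at most 3 in each direction between populations and 4 between exposures), and, where none passed, the locus in each direction with the lowest p among those whose groups did not overlap. Depth ranges are given in the report, and precision at single loci covers counting error and the spread between libraries only.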

Additional observations from a re-analysis of the deposited data

Results flagged for a closer look

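Of 72 groups of values examined, 4 held a library far from the others of its group, and chance alone flags about 1 group in 20. The MTA_Mm total of TBT replicate 11 of F1 P6 was 19062 CPM, with the next library at 17553 and the lowest at 16789 CPM (n = 7). The MTA_Mm total of TBT replicate 5 of F3 P5, the library with the fewest reads (246520), was 3784 CPM, with the other 4 between 17634 and 22444 CPM. The log2 ratio of MTA to MERVL and MT2_Mm outside genes was 1.58 in DMSO replicate 1 of F1 P6, with the others between 1.68 and 1.70. The same ratio was 1.40 in DMSO replicate 2 of F3 P6, with the others between 1.63 and 1.66.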

How the results depend on the processing

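Under another setting 201 values kept their direction and side of the threshold, 62 reversed, 8 no longer passed, 4 newly passed and 23 moved beyond the spread or by over 1.5 times. With 1 library left out these were 456, 19, 18, 1 and 19. In the lists that follow, L is the MTA_Mm and I the internal total, as log2 differences.

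Calls of loci between TBT and DMSO: DESeq2 gave 1 in F1 P4. The likelihood ratio test gave 2 in F1 P4, 5 in F1 P5, 55 in F3 P5 (7 higher, 48 lower) and 6 in F3 P6 (of all loci 0.099%, 0.257%, 3.28% and 0.32%), and the quasi-likelihood test 2 in F3 P6. With no filter 13 passed in F1 P5 (0.125%, against 0.138% of all loci), and with a pseudocount of 0.25 reads 0 in F3 P6. Calls between P5 and P4 in F3 DMSO were 36 by DESeq2 (1.84%, against 3.3% of all loci), 27 by the likelihood ratio test (1.38% against 2.51%), 0 by the quasi-likelihood test, 2 with a common total, 0 with median-ratio factors, 0 with a minimum of 20 reads' value, 20 with no filter (0.279% against 0.382%), 0 and 3 with pseudocounts of 0.25 and 4 reads, 7 with the replicate block and 0 without the low-read libraries. In F3 TBT they were 22, 57 and 40 by these 3 tools (of all loci 1.8%, 4.83% and 3.39%) and 15 without the low-read libraries. The replicate block gave 353 in F1 DMSO (17.7%, against 16.2% of all loci), 786 in F1 TBT (40.2% against 38.6%) and 0 in F3 TBT, and it changed no call of a total. Same-numbered P4 and P5 libraries deviated together in only some pairs of these groups (r over 0.1 in 1 of 4 pairs of F1 DMSO, 6 of 7 of F1 TBT and 3 of 5 of F3 TBT, and highest with the own number for 3, 5 and 2), which is a hint from the data only.

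Totals, with a common total: TBT against DMSO, L -0.015 and I -0.039 in F1 P4, L -0.019 and I -0.0063 in F1 P5, I 0.080 in F3 P4, L 0.046 and I 0.051 in F3 P5. P5 against P4, L -0.019 and I 0.11 in F1 DMSO, L -0.023 and I 0.14 in F1 TBT, I 0.19 in F3 DMSO, L 0.040 and I 0.16 in F3 TBT. The TBT effect in P5 minus P4 was I 0.033 in F1 and -0.029 in F3. With median-ratio factors, I -0.0097 in F1 P4, I 0.059 in F3 P4, L -0.021 and I -0.0013 in F3 P6 for TBT, and P5 against P4 L -0.034 and I 0.090 in F1 DMSO, L -0.079 and I 0.083 in F1 TBT, L 0.12 and I 0.37 in F3 DMSO, L 0.19 and I 0.31 in F3 TBT. With edgeR on summed reads, L -0.00012 and I -0.025 in F1 P4, L -0.019 and I -0.0065 in F1 P5, L -0.0095 in F1 P6, I 0.067 in F3 P4, L 0.062 and I 0.080 in F3 P5 for TBT, and P5 against P4 I 0.053, I 0.059, I 0.029 and I 0.023 in F1 DMSO, F1 TBT, F3 DMSO and F3 TBT. Outside genes only, L -0.14 in F1 P4, L 0.033 and I 0.34 in F3 P4 for TBT, P5 against P4 L 1.38 and I 1.16 in F1 DMSO, L 1.77 and I 1.32 in F1 TBT, L 1.75 and I 1.67 in F3 DMSO, L 1.26 and I 1.00 in F3 TBT, and TBT effects in P5 minus P4 of L 0.39 and I 0.16 in F1 and L -0.49 and I -0.67 in F3. From loci tested singly, L -2.7e-05 and I -0.013 in F1 P5, I -0.0028 in F1 P6 for TBT, and P5 against P4 I -0.11 in F1 DMSO, I -0.18 in F1 TBT and L -0.64 in F3 DMSO. Without the low-read libraries, L 0.014 in F3 P4, L 0.22 and I 0.15 in F3 P5 and the total outside genes -0.49 in F3 P4 for TBT, and P5 against P4 L -0.34 in F3 DMSO (adjusted p = 0.0452, limma) and I 0.043 in F3 TBT. With genes included, the ratio differences were 0.045 and 0.039 (MTB and MTC) and 0.094 and 0.11 (MERVL) in F1 DMSO and TBT, -0.022 in F1 DMSO and -0.047 in F3 DMSO (ORR1A), and -0.030 (MERVL) in F3 TBT.

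With each library left out in turn, loci called ranged from 181 to 287 (P5 against P4, F1 DMSO), 0 to 51 (F3 DMSO), 0 to 1 (TBT, F1 P5) and 0 to 2 (TBT, F3 P6), and MBD windows in F1 from 0 to 1. The lowest counts of F1 DMSO, 181 and 192, were without P5 replicate 43-5 or 44-1. L ranged from -0.63 to -0.34 in F3 DMSO and -0.38 to 0.34 in F3 TBT, and for TBT from -0.012 to 0.032 in F1 P5, -0.27 to 0.39 in F3 P5 and -0.0084 to 0.0077 in F3 P6. I ranged from -0.21 to 0.34 in F3 TBT and for TBT from -0.23 to 0.28 in F3 P5. The total outside genes in F3 P4 ranged from -0.17 to 0.39 for TBT. Ratio differences ranged from 0.87 to 0.99 (MERVL, F1 DMSO), -0.022 to 0.66 (MERVL, F3 TBT), 0.36 to 0.48 (MTB and MTC, F1 DMSO), -0.066 to 0.014 (ORR1A, F1 TBT) and -0.011 to 0.15 (ORR1A, F3 DMSO). With 1 library fewer the design of F1 DMSO does not allow an adjusted p under the threshold for these ratios. The cause of the other changes was not tested. Few simulated 2-fold changes were found between P5 and P4 in F3 DMSO, and few MTA windows passed the MBD filter.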
